A study of Mus musculus with 2 samples.

Results

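Lymph node homing and egress genes were described here as a set of 9 named genes, Ccr7, S1pr1, Klf2, Cxcr4, Gpr183, Itga4, Itgb7, Itgb1 and Ccr9, of the 31053 genes in the count tables. All 9 were found by their symbols, each once. The cells came from mediastinal lymph nodes (MedLN), which drain the lung, of WT C57/B6J mice, aged 5 to 13 weeks across the experiments. Every mouse carried the same asthma model: 50 µg of ovalbumin (OVA) with alum was injected intraperitoneally on days 0 and 7, OVA was given intranasally on days 14 to 16, and nodes were taken on day 17. One group was left without butyrate and the other received butyrate (C4), a short-chain fatty acid made by gut bacteria. The route and dose of butyrate are not clearly stated for this experiment. Each group was 1 library of pooled cells from 4 mice, so the spread between mice was not measured, no test between groups was possible, and all values below are descriptions.

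Lymphocytes enter lymph nodes, move between niches inside them and leave again, and each step has its own receptors. CCR7 follows the chemokines CCL19 and CCL21 into the T cell zone. S1PR1 follows sphingosine 1-phosphate out into lymph, CD69 pulls S1PR1 from the cell surface, and the transcription factor KLF2 drives the gene of S1PR1. CXCR4 reads CXCL12, and GPR183 (EBI2) reads oxysterols that place cells at the edges of follicles. The integrin α4 chain, encoded by Itga4, pairs with β7 (Itgb7) to bind MAdCAM-1 in gut vessels or with β1 (Itgb1) to bind VCAM-1 and fibronectin. CCR9 reads CCL25 of the thymus and small intestine.

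Itgb7 and Itgb1 encode alternative partners of the same α chain and had unlike patterns across the cells measured, so the 250 bases before their transcription start sites are shown, taken from RefSeq (GRCm38.p6). Capitals mark CACCC, a motif that KLF factors bind, or GGGTG, the same motif on the other strand. The Itgb7 stretch is chr15:102231936-102232185 on the minus strand, and the Itgb1 stretch is chr8:128685404-128685653 on the plus strand.
Itgb7: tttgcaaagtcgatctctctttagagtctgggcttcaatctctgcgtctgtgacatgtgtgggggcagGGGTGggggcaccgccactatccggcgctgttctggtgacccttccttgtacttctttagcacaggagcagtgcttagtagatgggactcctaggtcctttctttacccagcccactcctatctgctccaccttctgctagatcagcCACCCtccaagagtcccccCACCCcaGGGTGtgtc
Itgb1: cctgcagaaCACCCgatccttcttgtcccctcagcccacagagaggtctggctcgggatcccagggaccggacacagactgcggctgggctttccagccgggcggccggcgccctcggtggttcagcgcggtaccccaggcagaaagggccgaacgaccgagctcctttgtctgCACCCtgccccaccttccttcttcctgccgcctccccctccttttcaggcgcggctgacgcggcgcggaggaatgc
The Itgb7 stretch held 4 matches and 5 CG pairs, and the Itgb1 stretch held 2 matches and 21 CG pairs. The table held 7 of the 9 genes, of which Itga4 had 4 matches, Klf2, Cxcr4 and Ccr9 had 1 each, and Gpr183 had 0. Among 32851 promoters of the same length 52.0% held the motif, with a median of 1 match and 6 CG pairs, so 6 of 7 genes with a match is a description of these stretches only. In the mm10 annotation Itgb7 spans chromosome 15 from 102215995 to 102231944 (minus strand) and Itgb1 spans chromosome 8 from 128685654 to 128733200 (plus strand). Klf2 is also on chromosome 8, from 72319033 to 72321656 (plus strand), S1pr1 lies on chromosome 3 from 115710433 to 115715072 (minus strand) and Ccr7 on chromosome 11 from 99144196 to 99155077 (minus strand). Cxcr4 lies on chromosome 1 from 128588199 to 128592293 (minus strand) and Gpr183 on chromosome 14 from 121952551 to 121965195 (minus strand). Itga4 lies on chromosome 2 from 79255426 to 79333123 and Ccr9 on chromosome 9 from 123678439 to 123784330, both on the plus strand.

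Unique molecular identifiers (UMIs), which count captured RNA molecules, numbered 59176459 in 9681 cells without butyrate and 58381292 in 8932 cells with butyrate. After removal of 186 and 327 cells by filters and of 721 and 592 likely doublets, 8774 and 8013 cells remained, with medians of 5075 and 5649 UMIs, and 25 barcodes occurred in both libraries. Marker UMIs, none of them from the 9 genes, defined 6 classes, in the order without and with butyrate: naive-like CD4 T cells (710 and 659), naive-like CD8 T cells (1300 and 1328), Foxp3+ T cells (159 and 142), S100a4+ CD4 T cells (39 and 39), S100a4+ CD8 T cells (20 and 22) and B cells (4134 and 3887). Markers that did not define the classes fitted these names. T cell markers summed to 3296 to 4924 CPM (UMIs of a gene per 1e+06 UMIs of the class) in the 5 T cell classes and to 32.0 and 39.0 in B cells. Regulatory T cell markers summed to 1695 and 1548 CPM in Foxp3+ cells against 150 and 118 in naive-like CD4 cells. The S100a4+ classes were less clean. Regulatory T cell markers summed to 749 and 352 CPM in S100a4+ CD4 cells and to 267 and 197 in S100a4+ CD8 cells. B cell markers summed to 1058 and 295 CPM in S100a4+ CD4 cells and to 1209 and 137 in S100a4+ CD8 cells, against 133 and 127 in naive-like CD4 cells. Monocyte and macrophage markers summed to 80.6 and 1035 CPM in S100a4+ CD4 cells, and all 3 of them were at 0 in S100a4+ CD8 cells. Their part in the S100a4+ results was not tested. Cells that carry over 5 Cd74 UMIs or any Lyz2 UMI were 4 of 39 CD4 cells in each library and 2 of 20 and 0 of 22 CD8 cells. Values without these cells are given for the Ccr7 level of CD4 cells and for some ratios between the libraries. All other S100a4+ levels, and the ratios over naive-like cells, include them.

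Ccr7, the entry receptor, had its highest levels in naive-like T cells. Levels are UMIs summed over a class and given as CPM of that class, with 95% intervals that here and below cover counting error only, and values are without and then with butyrate. Because tags come from the 3′ ends of transcripts, a level is compared for the same gene only. In naive-like CD4 cells the Ccr7 level was 259 (243 to 275) and 269 (254 to 285) CPM, and in naive-like CD8 cells it was 266 (256 to 276) and 293 (283 to 303) CPM. B cells carried less, at 146 (142 to 152) and 133 (129 to 138) CPM. Foxp3+ cells were lower still without butyrate, at 82.3 (67.3 to 99.7) CPM, and had 138 (117 to 162) CPM with butyrate, where neighbouring Foxp3+, B and S100a4+ CD8 levels could not be separated. The S100a4+ classes could not be ranked firmly for Ccr7, because 1 cell held 22 of the 44 Ccr7 UMIs of S100a4+ CD4 cells without butyrate and 1 cell held 36 of the 84 in S100a4+ CD8 cells. Without the cells rich in Cd74 or holding Lyz2, Ccr7 stood at 54.1 and 58.6 CPM in S100a4+ CD4 cells, below every other class in both libraries, though the interval without butyrate (31.5 to 86.6) overlapped that of Foxp3+ cells.

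**Figure D1:**
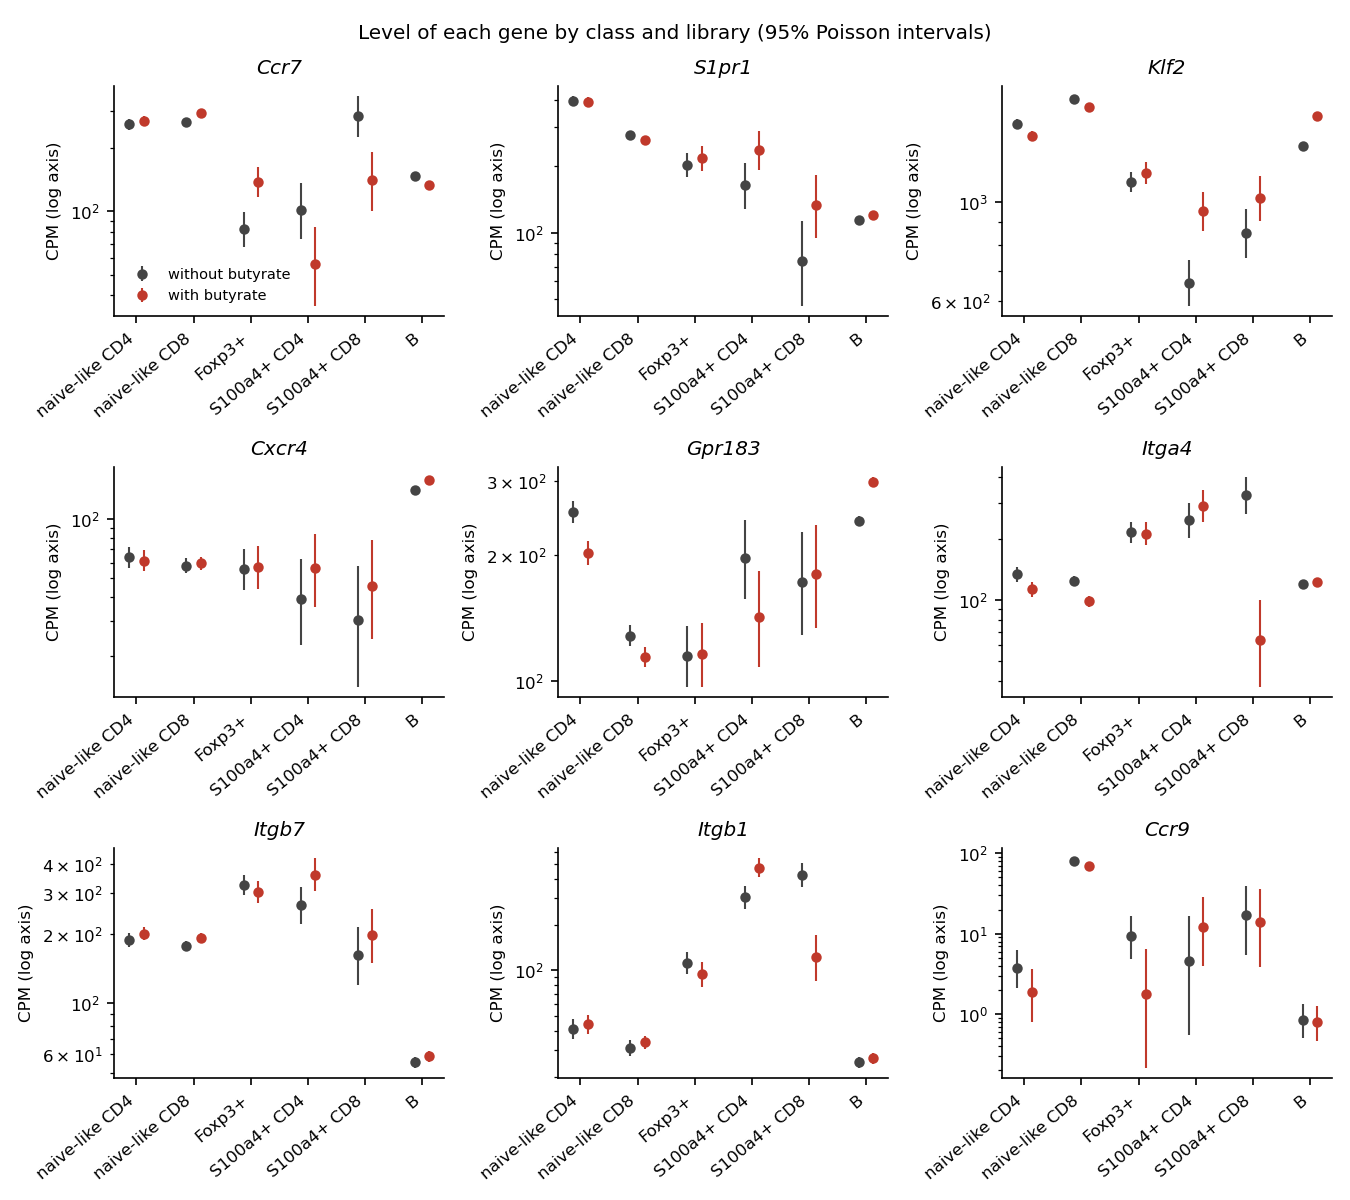
Level of each of the 9 genes (y axis, CPM, log scale) in the 6 classes (x axis), without (dark) and with (red) butyrate. Points are sums over the cells of a class and bars are exact 95% Poisson intervals. Ccr7 and S1pr1 stand highest in naive-like T cells, apart from the S100a4+ CD8 point of Ccr7 without butyrate, Cxcr4 stands highest in B cells, at 140 and 158 CPM, and Ccr9 stands highest in naive-like CD8 cells, at 80.3 and 68.9 CPM.

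S1pr1, the egress receptor, was highest in naive-like CD4 cells in both libraries, at 394 (375 to 414) and 391 (372 to 410) CPM. Naive-like CD8 cells followed with 276 (266 to 287) and 263 (254 to 273) CPM, and Foxp3+ cells had 202 (178 to 229) and 217 (191 to 246) CPM. B cells had 115 (110 to 119) and 120 (116 to 125) CPM. Without butyrate each of these steps lay beyond its counting interval. S100a4+ CD4 cells, at 164 (128 to 206) CPM there, came between Foxp3+ and B cells and were not separated from Foxp3+ cells. With butyrate S100a4+ CD4 cells, at 237 (192 to 289) CPM, came between naive-like CD8 and Foxp3+ cells and were separated from neither. S100a4+ CD8 cells had 74.3 (46.6 to 112) CPM without butyrate, the lowest level, and 134 (94.5 to 183) CPM with butyrate, not separated from B cells. Klf2, the regulator of S1pr1, had another order: naive-like CD8 cells led with 1695 (1669 to 1722) and 1628 (1605 to 1652) CPM, ahead of naive-like CD4 cells with 1497 (1459 to 1535) and 1404 (1368 to 1440) CPM. B cells, low in S1pr1, were high in Klf2, with 1332 (1317 to 1347) and 1555 (1539 to 1572) CPM. S100a4+ cells had the lowest Klf2 levels of the 6 classes, 659 (585 to 740) and 952 (860 to 1051) CPM for CD4 and 851 (749 to 963) and 1019 (905 to 1144) CPM for CD8. Splitting the naive-like cells by the presence of a Cd69 UMI, a split chosen after values were seen, gave small differences in S1pr1 RNA: the log2 ratio of Cd69+ over Cd69- cells was -0.24 (-0.38 to -0.09) and -0.20 (-0.33 to -0.08) in CD8 cells and -0.14 (-0.30 to 0.03) and -0.14 (-0.28 to 0.01) in CD4 cells. CD69 acts on the S1PR1 protein, which was not measured.

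Cxcr4 and Gpr183, the receptors of positions inside the node, were arranged otherwise. Cxcr4 was highest in B cells, at 140 (136 to 145) and 158 (153 to 164) CPM, and ranged from 30.4 to 64.0 CPM over the 5 T cell classes of both libraries, in which no neighbours in the order were separated by their intervals. Gpr183 was the only member whose order had no separated neighbours without butyrate. There it stood at 253 (237 to 269) CPM in naive-like CD4 cells, 241 (234 to 247) in B cells, 128 (121 to 135) in naive-like CD8 cells and 114 (96.7 to 135) in Foxp3+ cells. With butyrate B cells led with 298 (291 to 306) CPM, separated from naive-like CD4 cells at 202 (188 to 216) CPM. Naive-like CD4 cells thus carried more Gpr183 than naive-like CD8 cells in each library, with intervals that did not overlap.

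The integrin genes had the opposite arrangement to Ccr7 among CD4 and Foxp3+ T cells: naive-like cells had the lower levels. Itga4 was at 134 (123 to 146) and 113 (103 to 123) CPM in naive-like CD4 cells, 215 (190 to 242) and 212 (186 to 241) CPM in Foxp3+ cells, and 247 (202 to 298) and 290 (241 to 348) CPM in S100a4+ CD4 cells. Itgb7 was at 188 (175 to 202) and 200 (187 to 214), 325 (295 to 358) and 304 (272 to 338), and 267 (221 to 321) and 361 (305 to 424) CPM in the same classes. Itgb1 was at 41.2 (35.1 to 48.0) and 44.3 (38.2 to 51.1), 112 (94.5 to 132) and 94.4 (77.3 to 114), and 304 (254 to 361) and 474 (409 to 545) CPM. Foxp3+ cells therefore sat with S100a4+ CD4 cells for Itgb7 and between naive-like CD4 and S100a4+ CD4 cells for Itgb1. S100a4+ CD8 cells had less Itgb7 than Foxp3+ cells, at 162 (120 to 215) and 197 (149 to 256) CPM. B cells had the lowest Itgb7 and Itgb1 levels, 55.5 and 58.8 CPM and 24.9 and 26.3 CPM, while their Itga4 level of 119 and 122 CPM was near that of naive-like cells. As a share of all UMIs of both β chain genes, Itgb1 took 18.0% and 18.1% in naive-like CD4 cells, 14.9% and 14.9% in naive-like CD8 cells, 25.6% and 23.7% in Foxp3+ cells, 53.2% and 56.7% in S100a4+ CD4 cells, and 30.9% and 30.9% in B cells. The share differed between classes and was nearly the same in both libraries for every class but S100a4+ CD8, where it was 72.4% and 38.5% and 1 cell held 67 of 126 and 26 of 35 Itgb1 UMIs. When each cell was thinned to 2000 UMIs, Itgb1 was seen in 10 of 13 and 9 of 15 S100a4+ CD4 cells with an Itga4 UMI, against 9 of 26 and 7 of 24 of those without one. For Itgb7 the matching counts were 7 of 13 and 7 of 15 against 11 of 26 and 12 of 24. Those shares rest on few cells, and their exact intervals overlap, from 46.2% to 95% against 17.2% to 55.7% for Itgb1 without butyrate.

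Ccr9, the gut and thymus receptor, was mainly found in naive-like CD8 cells among these classes. Naive-like CD8 cells had 80.3 (74.7 to 86.2) and 68.9 (64.1 to 74) CPM, against 3.77 (2.11 to 6.21) and 1.87 (0.809 to 3.69) CPM in naive-like CD4 cells and 0.845 (0.509 to 1.32) and 0.793 (0.462 to 1.27) CPM in B cells. A Ccr9 UMI was found in 33.3% and 32.9% of naive-like CD8 cells, at medians of 6804 and 7842 UMIs per cell, and in 0.314% and 0.386% of B cells, at medians of 4404 and 4608. In cells thinned to 2000 UMIs the shares were 14% and 12.4% against 0.171% and 0.155%. S100a4+ CD8 cells had 16.9 (5.48 to 39.4) and 14.1 (3.83 to 36.0) CPM, a log2 ratio of -2.25 (-3.88 to -1.02) and -2.29 (-4.17 to -0.93) over naive-like CD8 cells.

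Ratios within a library set these orders against the background of all genes. A gene was counted where both sums held at least 50 UMIs together, and as past the threshold at a log2 ratio of 1 in either direction. In Foxp3+ over naive-like CD4 cells 3 of 8 members (Ccr7, Gpr183, Itgb1) were past it without butyrate and 1 of 8 (Itgb1) with butyrate, where 15% and 11.7% of all genes were. The Ccr7 ratio was -1.65 (-1.96 to -1.36) and -0.96 (-1.21 to -0.72), the Itgb1 ratio 1.45 (1.11 to 1.78) and 1.09 (0.74 to 1.44), and the S1pr1 ratio -0.96 (-1.16 to -0.77) and -0.85 (-1.05 to -0.65). The direction of each was shared by both libraries. In S100a4+ CD4 over naive-like CD4 cells 4 of 8 (Ccr7, S1pr1, Klf2, Itgb1) and 3 of 8 (Ccr7, Itga4, Itgb1) were past it, beside 21.5% and 16.2% of all genes, and Itgb1 had ratios of 2.88 (2.54 to 3.22) and 3.42 (3.12 to 3.72). In S100a4+ CD8 over naive-like CD8 cells 4 of 9 (S1pr1, Itga4, Itgb1, Ccr9) and 3 of 9 (Ccr7, Itgb1, Ccr9) were past it, beside 23.1% and 22% of all genes. Itga4 pointed both ways there, at 1.40 (1.08 to 1.69) and -0.64 (-1.40 to 0.03). In B over naive-like CD4 cells 3 of 8 (S1pr1, Cxcr4, Itgb7) and 4 of 8 (the same with Ccr7) were past it, beside 22.6% and 22.1% of all genes. S1pr1 was lower in B cells, at -1.78 (-1.87 to -1.69) and -1.70 (-1.79 to -1.61), as was Itgb7, at -1.76 (-1.89 to -1.63) and -1.77 (-1.90 to -1.64), while Cxcr4 was higher, at 1.13 (0.95 to 1.32) and 1.36 (1.18 to 1.55).

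**Figure D2:**
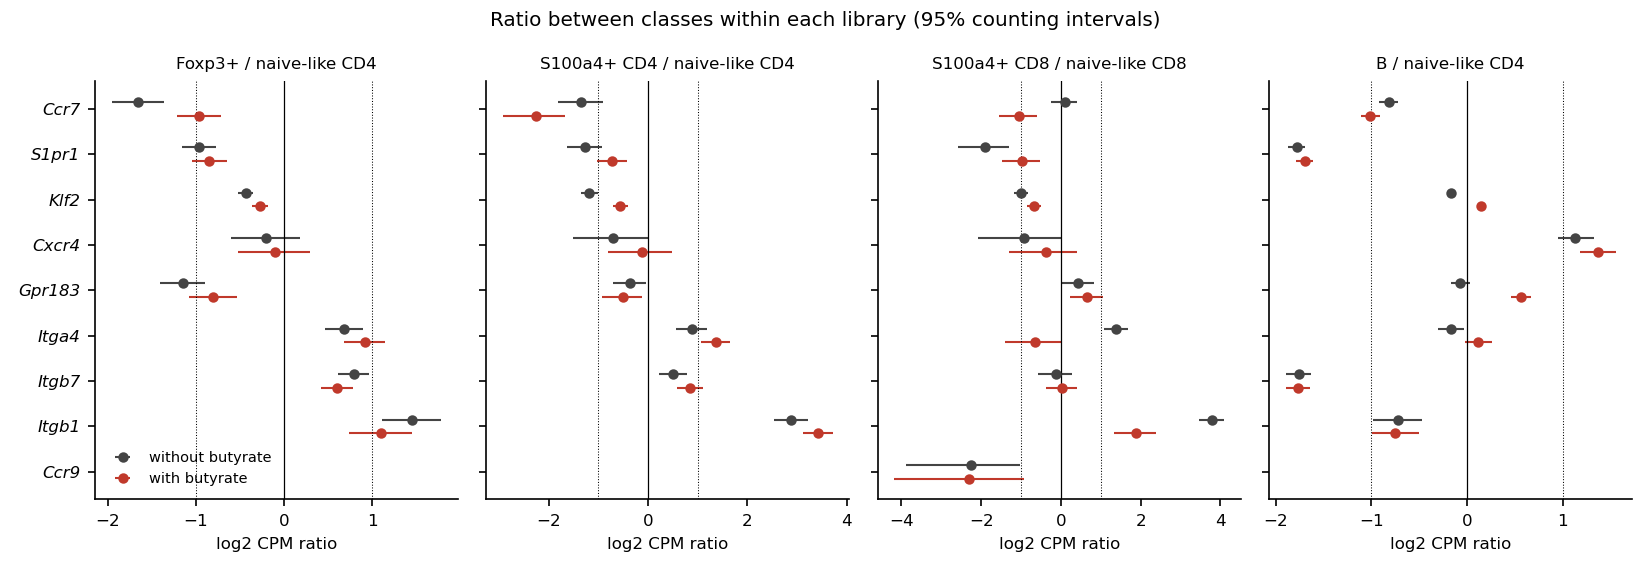
Log2 CPM ratio (x axis) of each member with enough UMIs (y axis) for 4 class contrasts, without (dark) and with (red) butyrate; bars are exact 95% counting intervals and dotted lines mark log2 ratios of 1 and -1. In Foxp3+ and S100a4+ CD4 cells Ccr7 and S1pr1 lie left of 0 and Itga4, Itgb7 and Itgb1 right of it in both libraries. In B cells Cxcr4 alone lies right of 1, while S1pr1 and Itgb7 in both libraries and Ccr7 with butyrate lie left of -1.

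The Foxp3+ class was not uniform. Of its cells 24.5% (39 of 159) without and 22.5% (32 of 142) with butyrate carried a UMI of S100a4, a gene of activated and memory T cells, and the following split on that UMI was chosen after values were seen. Ccr7 summed to 100 UMIs in 120 S100a4- cells and 5 UMIs in 39 S100a4+ cells without butyrate, or 133 (108 to 162) and 9.57 (3.11 to 22.3) CPM. With butyrate it summed to 141 UMIs in 110 cells and 14 UMIs in 32 cells, or 210 (176 to 247) and 31.1 (17 to 52.2) CPM. Foxp3+ S100a4+ cells thus had less Ccr7 in both libraries although they held more UMIs per cell, with medians of 8789 and 9309.5 against 4423 and 4891. The log2 ratio of S100a4+ over S100a4- cells was -3.80 (-5.45 to -2.52) and -2.75 (-3.66 to -1.96) for Ccr7, -0.73 (-0.90 to -0.57) and -1.20 (-1.39 to -1.01) for Klf2, and -0.58 (-0.97 to -0.19) and -1.52 (-2.02 to -1.05) for S1pr1. The integrin genes stood on the other side: Itga4 at 1.17 (0.81 to 1.53) and 0.90 (0.52 to 1.28), Itgb7 at 0.95 (0.67 to 1.24) and 0.95 (0.63 to 1.27), and Itgb1 at 0.83 (0.34 to 1.33) and 1.02 (0.44 to 1.61). Gpr183 differed by less than its counting error, at 0.33 (-0.16 to 0.82) and 0.18 (-0.35 to 0.70), and Cxcr4 stood at -0.18 (-0.93 to 0.55) and -1.25 (-2.22 to -0.38).

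**Figure D3:**
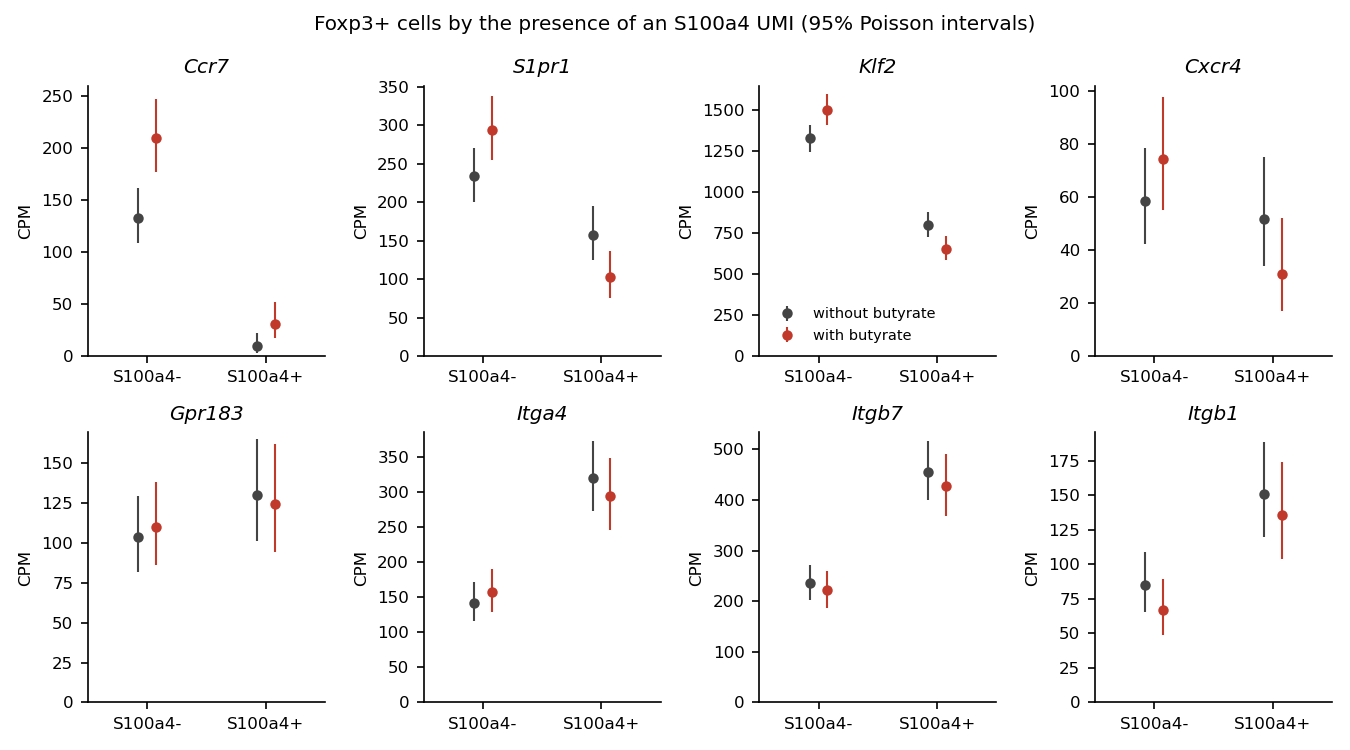
Levels (y axis, CPM, from 0) of 8 members in Foxp3+ cells without and with an S100a4 UMI (x axis), without (dark) and with (red) butyrate; bars are exact 95% Poisson intervals. Ccr7 goes from 133 and 210 CPM in S100a4- cells to 9.57 and 31.1 CPM in S100a4+ cells, and Itgb7 from 235 and 221 to 455 and 427 CPM.

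Between the libraries, members of the larger classes differed little. The threshold here was a log2 ratio, with over without butyrate, of 0.5 in either direction. In naive-like CD4 cells 0 of 8 members were past it, beside 7.73% of all 7790 genes, and 0 of 9 in naive-like CD8 cells, beside 5.33% of 9114, and 0 of 8 in B cells, beside 6.11% of 10394. In Foxp3+ cells 1 of 8, Ccr7, was past it, beside 12.5% of 5121 genes. Counting intervals left out 0 for 3 of 8 members in naive-like CD4 cells, 6 of 9 in naive-like CD8 cells, 1 of 8 in Foxp3+ cells and 4 of 8 in B cells, beside 13.5%, 15.4%, 13.3% and 27.2% of all genes. A gene with more UMIs has a narrower interval, and with 1 library a group none of this separates butyrate from the pools of mice.

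Ccr7 was the one member past the threshold in a larger class: in Foxp3+ cells its log2 ratio was 0.75 (0.38 to 1.12). Within Foxp3+ S100a4- cells it was 0.66 (0.28 to 1.04), little smaller without the S100a4+ cells. A Ccr7 UMI was found in 34.0% (26.6% to 41.9%) and 36.6% (28.7% to 45.1%) of Foxp3+ cells, or 17.1% and 22.3% after thinning to 2000 UMIs, and these intervals overlap. Genes of cell state moved with the Ccr7 ratio in this class: among effector memory markers S100a10 was -0.59, Vim -0.55 and Lgals1 -0.40, among cycling markers Top2a was -0.77 and Mki67 -0.41, and the naive marker Igfbp4 was 0.89. Their part in the Ccr7 value was not tested. In naive-like CD8 cells Ccr7 had 0.14 (0.06 to 0.22), in naive-like CD4 cells 0.06 (-0.07 to 0.18) and in B cells -0.13 (-0.21 to -0.06). S1pr1 had intervals that included 0 in naive-like CD4 (-0.01), naive-like CD8 (-0.07), Foxp3+ (0.10) and B cells (0.07). Klf2 was -0.09 (-0.14 to -0.04) in naive-like CD4, -0.06 (-0.09 to -0.03) in naive-like CD8 and 0.22 (0.20 to 0.25) in B cells. As whole classes, the 4 larger ones thus had S1pr1 and Klf2 ratios within 0.25 of 0. Parts of the Foxp3+ class lay on opposite sides: S1pr1 was 0.33 (0.03 to 0.63) in S100a4- and -0.62 (-1.17 to -0.08) in S100a4+ cells, and Klf2 was 0.18 (0.05 to 0.31) and -0.28 (-0.50 to -0.06).

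Gpr183 and Itga4 differed in both naive-like classes beyond counting error. Gpr183 was lower with butyrate in naive-like CD4 cells, -0.33 (-0.46 to -0.19), and in naive-like CD8 cells, -0.17 (-0.28 to -0.05), and higher in B cells, 0.31 (0.26 to 0.36). In B cells with an Ighd UMI and no Mki67 UMI, which leaves out cycling cells and cells that lost IgD, the Gpr183 ratio was 0.24 (0.19 to 0.30), that of Klf2 0.17 (0.14 to 0.19) and that of Cxcr4 0.12 (0.05 to 0.19), against 0.17 (0.10 to 0.24) for Cxcr4 in all B cells. Ccr7 was -0.22 (-0.30 to -0.14) in those cells, farther from 0 than in all B cells. Itga4 was lower in naive-like CD4 cells, -0.25 (-0.43 to -0.07), and naive-like CD8 cells, -0.34 (-0.46 to -0.22), and stood at 0.03 (-0.04 to 0.11) in B cells. Split by a Cd69 UMI, Itga4 was -0.07 (-0.40 to 0.25) in Cd69- and -0.35 (-0.58 to -0.13) in Cd69+ naive-like CD4 cells. In naive-like CD8 cells the same split gave -0.38 and -0.34. Its partner Itgb7 was 0.09 (-0.05 to 0.23) in naive-like CD4 cells, an interval that includes 0, and 0.13 (0.03 to 0.22) in naive-like CD8 cells. In naive-like CD8 cells Itga4 and Itgb7 thus did not share a direction. Ccr9 in naive-like CD8 cells was -0.22 (-0.37 to -0.07). The make-up of naive-like CD4 cells also differed between the libraries: the cycling marker Mki67 was -2.09 (119 and 30 UMIs) and Top2a -1.25. In naive-like CD8 cells these were 0.42 and 0.25. Among effector memory markers S100a6 was -0.70 and Vim 0.33 in naive-like CD4 cells. The part of these genes in the member ratios was not tested.

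**Figure D4:**
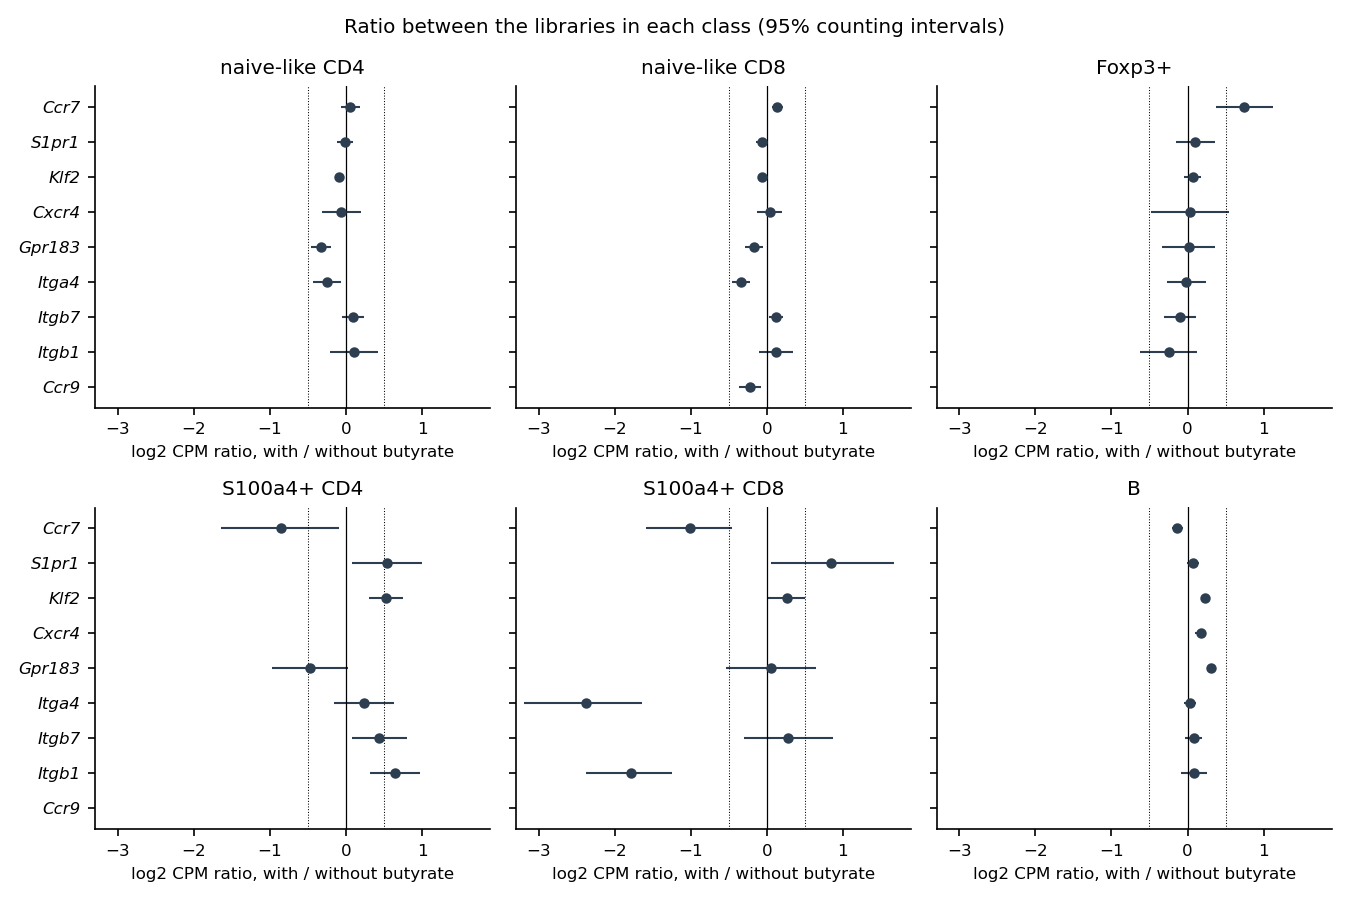
Log2 CPM ratio of butyrate over no butyrate (x axis) for each member with at least 50 UMIs (y axis) in the 6 classes; bars are exact 95% counting intervals and dotted lines mark 0.5 and -0.5. In the 4 larger classes only Ccr7 in Foxp3+ cells, at 0.75, lies past a dotted line, and in the S100a4+ classes the bars are wide and Itga4 of CD8 cells lies farthest out, at -2.37.

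The S100a4+ classes had larger ratios on few cells. In S100a4+ CD4 cells 4 of 7 members (Ccr7, S1pr1, Klf2, Itgb1) and in S100a4+ CD8 cells 4 of 7 (Ccr7, S1pr1, Itga4, Itgb1) were past 0.5, beside 22.1% of 2398 and 19.1% of 1459 genes. Counting intervals left out 0 for 5 of 7 members in each, beside 18.4% and 16.9% of genes. The make-up of S100a4+ CD4 cells also differed between the libraries: the regulatory T cell markers Ikzf2, Ctla4 and Tnfrsf18 were -1.44, -1.05 and -0.95, and Trdc had 0 UMIs without and 26 with butyrate, and the part of either in these ratios was not tested. Ccr7 was -0.85 (-1.65 to -0.09) in CD4 cells, but without the cells rich in Cd74 or holding Lyz2 both libraries had alike levels of 54.1 and 58.6 CPM. Klf2 was 0.53 (0.31 to 0.76), and 0.58 (0.32 to 0.84) without those cells, and S1pr1 was 0.53 (0.08 to 1.0), and 0.38 (-0.11 to 0.87) without them. Itgb1 was 0.64 (0.31 to 0.97), and 0.40 (0.05 to 0.76) without them. Klf2 and Itgb1 of CD4 cells thus kept their direction there, but Itgb1 was -0.035 when cells were thinned to 2000 UMIs. In CD8 cells Ccr7 was -1.01 (-1.59 to -0.45), and -0.59 (-1.25 to 0.07) without 2 such cells, and S1pr1 was 0.85 (0.05 to 1.67), and 0.48 (-0.35 to 1.36), so that both intervals then included 0. Itga4 was -2.37 (-3.19 to -1.64), and -2.16 (-3.01 to -1.37) without 2 such cells, and Itgb1 was -1.79 (-2.37 to -1.24), and -1.0 (-1.67 to -0.35). With butyrate 1 cell held 10 of 18 Itga4 UMIs and 26 of 35 Itgb1 UMIs, so these CD8 values describe a handful of cells.

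A list of 34 other genes of the pathway, which holds adhesion molecules, further sphingosine phosphate receptors, chemokine receptors, integrins and their signalling partners, gave 0 of 28 tested genes past 0.5 in naive-like CD4, 0 of 30 in naive-like CD8 and 1 of 32 in B cells, where S1pr2 was -0.92 (-1.45 to -0.40). Of all genes 7.73%, 5.33% and 6.11% were past 0.5 in these 3 classes, so counts this small over few genes are a description only. The medians of the list were 0.00, 0.07 and 0.07, beside 0.01, 0.02 and 0.05 over all genes tested. In Foxp3+ cells 3 of 29 were higher, Ccr6, a receptor for CCL20, at 0.70 (-0.15 to 1.58), Itga6, a laminin-binding integrin chain, at 0.55 (0.13 to 0.98), and Icam2, an adhesion ligand, at 0.79 (0.08 to 1.51). The median was -0.06 there, and 12.5% of all genes were past 0.5. In S100a4+ CD4 cells 3 were higher (S1pr4, Klf3, Arrb2) and 3 lower (Rgs1, Rgs2, Fermt3) of 25, and in S100a4+ CD8 cells 2 were higher (Itgal, Rgs1) and 2 lower (Klf6, Grk2) of 19. These shares are near those of all genes, 22.1% and 19.1%, and are no result about the list. Cd69 stayed under the threshold in naive-like CD4 cells but was lower with butyrate, at 409 and 295 CPM, with a log2 ratio of -0.47 (-0.58 to -0.36). In naive-like CD8 cells Cd69 was -0.31 (-0.37 to -0.25) and in B cells 0.12 (0.08 to 0.16).

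Across classes the pathway list had shares of genes past a ratio of 1 that are set here beside those of all genes. In S100a4+ CD4 over naive-like CD4 cells 5 of 28 were higher without butyrate (Cd44, Itgal, Itgav, Rgs1, Rap1a) and 5 of 28 with butyrate (Cd44, S1pr4, Itgav, Rgs1, Rap1a), while Itga6 was lower without butyrate and Foxo1 with butyrate, and 21.5% and 16.2% of all genes were past 1. Cd44 encodes the hyaluronan receptor of activated T cells and Rgs1 a brake on chemokine receptor signalling. In Foxp3+ cells Itgav and Rgs1 were higher in both libraries, joined by Cd44 without butyrate, where Icam2 was lower, so that 4 of 28 and 2 of 28 were past 1, beside 15% and 11.7% of all genes. In S100a4+ CD8 cells Cd44 was higher and Itgae, the αE integrin chain, lower in both, with Cxcr5, Rgs1 and Rgs2 higher with butyrate, so that 2 of 29 and 5 of 30 were past 1, beside 23.1% and 22%. In B cells S1pr3, Cxcr5 and Ccr6 were higher in both, and 7 of 32 and 5 of 32 were lower, among them Selplg, a ligand of P-selectin, and both LFA-1 chains, Itgal and Itgb2, beside 22.6% and 22.1% of all genes past 1 in either direction. These counts over few genes are descriptions, and whether the list differs from other genes was not tested.

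Ligands were nearly absent from these lymphocyte classes. Of 15 genes for ligands and their metabolism, 2 were tested in naive-like CD4, 2 in naive-like CD8 and 3 in B cells between libraries. Of these 0 passed 0.5, beside 7.73%, 5.33% and 6.11% of all genes. In B cells Sgpl1, which degrades sphingosine 1-phosphate, was at 17.3 and 19.4 CPM, Ccl25 at 9.43 and 8.58 CPM and Spns2, which exports sphingosine 1-phosphate from cells, at 4.49 and 5.83 CPM. Ccl19 and Cxcl12, made by stromal cells, had 0 UMIs in naive-like CD4 and B cells.

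Other genes moved with the library difference, and their part in it was not tested. Interferon-stimulated genes were lower with butyrate past 0.5 for 17 of 18 in naive-like CD4, 15 of 18 in naive-like CD8 and 15 of 18 in B cells, with medians of -0.91, -0.86 and -0.70. In Foxp3+ cells 5 of 13 were lower and 1 higher, with a median of -0.43, in S100a4+ CD4 cells 7 of 7 were lower and in S100a4+ CD8 cells 1 of 4. Of all genes 7.73%, 5.33%, 6.11%, 12.5%, 22.1% and 19.1% were past 0.5 in either direction in these classes, in the order named. Immediate early and handling genes, which respond within minutes to stimulation or to dissociation, had medians of -0.29 in naive-like CD4, -0.19 in naive-like CD8, 0.12 in Foxp3+, -0.12 in S100a4+ CD4, 0.29 in S100a4+ CD8 and 0.14 in B cells. In naive-like CD4 cells 2 of them were higher and 3 lower of 15 past 0.5, beside 7.73% of all genes. In B cells 2 were higher and 1 lower of 16, beside 6.11%, and in naive-like CD8 cells 0 of 15 were past it, beside 5.33%. In Foxp3+ cells 3 were higher and 1 lower of 13, in S100a4+ CD4 cells 3 and 1 of 11, and in S100a4+ CD8 cells 4 and 1 of 10, where 12.5%, 22.1% and 19.1% of all genes were past 0.5 in either direction. The median of this list was lower in naive-like T cells and higher in B cells, as were Klf2, Gpr183 and Cd69. Ccr7 went the other way in naive-like CD8 and B cells. In B cells the list itself was split, with 10 genes higher and 6 lower of 16. Any link between the list and the members was not tested.

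For each member up to 3 genes whose log2 level across the 6 classes of both libraries was most alike were taken from 2001 genes by Pearson's r over 12 values. These 12 values share 2 libraries and pairs of like classes, so r is a description. S1pr1 was most like Klf13 (0.949), Dusp10 (0.948) and Rasgrp1 (0.921), and Klf2 most like Smg1 (0.949) and Mycbp2 (0.904). Ccr7 was most like Rpl7 (0.927), Pik3ip1 (0.913) and Rpl36a (0.898). Cxcr4 was most like Dmxl1 (0.963), Klhl24 (0.938) and Zfp318 (0.932), and Gpr183, with the weakest likeness, like Zcchc6 (0.801), Btla (0.787) and Hmgn1 (0.778). Itgb7 was most like Sept9 (0.986), Lrrfip1 (0.974) and Itgb2 (0.966), the β chain of leukocyte integrins. Itga4 was most like Hnrnpm (0.920), Ppp1r12a (0.917) and Cd47 (0.911), and Itgb1 most like Hdgf (0.966), Dap3 (0.960) and Ywhab (0.945). Ccr9 was most like Fam241a (0.971), Epsti1 (0.882) and Nkg7 (0.837), a gene of cytotoxic granules. No other member was among the 3 genes of any member.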

How the data were processed

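Single-cell RNA was measured in 2 libraries, 1 per group, sequenced from the 3′ ends of transcripts. The deposited values are whole UMI counts of each gene in each cell, which the authors left unnormalized. The submitters' processing notes name Cell Ranger 6.0.1 and the mm10 build. Here cells were dropped where mitochondrial UMIs exceeded 10% or fewer than 200 genes were seen. Doublets were scored with Scrublet in scanpy 1.11.5, and the top scores were dropped at a rate of 0.8% for each 1000 cells. Classes were set by UMIs: T cells had at least 1 Cd3e and 0 Cd79a. CD4 and CD8 cells had at least 1 Cd4 or Cd8a and 0 of the other. Naive-like cells had 0 S100a4, 0 Foxp3 and at least 1 Lef1. Foxp3+ cells were T cells with at least 1 Foxp3 and 0 Cd8a, S100a4+ cells had at least 1 S100a4 and 0 Foxp3, and B cells had at least 2 Cd79a and 0 Cd3e.

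UMIs were summed per class as CPM. Ratios used no pseudocount and sums of at least 50 UMIs over both sides. Intervals at 95% were exact Poisson for levels, exact binomial (Clopper-Pearson) for shares and exact conditional for ratios. Depth was 59176459 and 58381292 UMIs. With 1 library per group no p-value was computed. Thinned shares used 2000 UMIs per cell. Likeness used log2(CPM + 10) over genes with at least 100 CPM in any of the 12 values, leaving out genes that define a class. The text names all 9 members and, for each, the 3 most alike genes, and gives the pathway, ligand, interferon and immediate early lists by counts. Some genes that this rule or these lists hold are not reported here by name. The members and lists were chosen with earlier results of these data known. The results were recomputed under 14 other settings and under 3 more chosen after seeing the data. The ratio script was tested on simulated data. Python 3.11.15, numpy 2.4.6, pandas 2.3.3, scipy 1.17.1 and matplotlib 3.10.9 were used. Gene positions came from GENCODE for mm10 and promoters from RefSeq (GRCm38.p6).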

Additional observations from a re-analysis of the deposited data

Results flagged for a closer look

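Ratios between the libraries (log2, with over without butyrate) whose counting intervals lay on opposite sides of 0 were set against each other for classes of at least 100 cells in each library. With 1 library per group these differences were not tested. For Gpr183, the oxysterol receptor, the ratio in naive-like CD4 cells minus that in B cells was -0.64, and the ratio in naive-like CD8 cells minus that in B cells was -0.48. For Klf2, the regulator of egress genes, the values were -0.32 for naive-like CD4 minus B cells and -0.28 for naive-like CD8 minus B cells. For Ccr7, the entry receptor, the order was turned, with 0.27 for naive-like CD8 minus B cells and 0.88 for Foxp3+ minus B cells.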

How the results depend on the processing

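No paired analysis was possible because each group is 1 library. In the 4 larger classes 33 ratios between libraries were recomputed under the alternatives. Of 380 values 355 moved by less than the counting error and 25 moved by more. Among ratios whose counting interval left out 0, 0 values changed sign. Some ratios whose interval included 0 did change sign, such as Itga4 in Foxp3+ cells (-0.17 to 0.17) and in B cells (-0.06 to 0.08). Gpr183 kept between -0.38 and -0.24 in naive-like CD4, -0.31 and -0.09 in naive-like CD8 and 0.22 and 0.31 in B cells, Klf2 between 0.13 and 0.24 in B cells, Itga4 between -0.47 and -0.21 in naive-like CD4 and -0.43 and -0.28 in naive-like CD8 cells, and Ccr7 between 0.67 and 0.89 in Foxp3+ cells.

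The S100a4+ classes depended on the processing, and the cause was not tested. The Ccr7 ratio between libraries in S100a4+ CD4 cells was 0.17 after thinning to 2000 UMIs and 0.11 without cells rich in Cd74 or holding Lyz2, and that of Itgb1 was -0.035 after thinning. In S100a4+ CD8 cells with at least 2 S100a4 UMIs S1pr1 was -0.65 and Klf2 -1.45, and Klf2 was -0.21 without the Cd74-rich cells. Over naive-like CD4 cells, thinning gave 0.012 for S1pr1 in S100a4+ CD4 cells with butyrate, 0.11 for Gpr183 in S100a4+ CD4 cells without butyrate and 0.12 for Klf2 in Foxp3+ cells with butyrate, for which the mean over cells of CPM gave 0.027.

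Counts of members past 0.5 changed from 1 to 2 in Foxp3+ cells when T cells could hold 1 Cd79a UMI, when only cells with under 5 interferon-list UMIs were kept, or with the mean over cells. The share of all genes past 0.5 also moved, from 12.5% to 12.8%, 13.8% and 18.4% under these settings. In S100a4+ CD4 cells the 4 became 2 with at least 2 S100a4 UMIs, with 1 Cd79a UMI allowed or without Cd74-rich cells, and 1 after thinning. The share of all genes went from 22.1% to 22.4%, 21.4%, 21.6% and 17.9% under these settings. In S100a4+ CD8 cells the 4 became 0 after thinning, where members past 0.5 had fewer UMIs than the minimum of 50: their ratios were -3.94 for Itga4, -3.22 for Itgb1 and 1.18 for S1pr1. In this class the share of all genes went from 19.1% of 1459 to 10.8% of 176 after thinning. Over 12 settings Itga4 kept between -3.94 and -1.89 and Itgb1 between -3.22 and -1.0 there. In B cells the 0 became 1 without doublet removal, beside 6.20% of all genes there. Members past 1 in Foxp3+ over naive-like CD4 cells with butyrate went from 1 to 0 without the Lef1 rule or with a pseudocount of 10 CPM, to 2 with 1 Cd79a UMI allowed and to 3 without ribosomal, mitochondrial and immunoglobulin genes in the total. In S100a4+ CD8 over naive-like CD8 cells with butyrate the 3 became 6 with at least 2 S100a4 UMIs. For these counts between classes the share of all genes under each setting is not given here, so they describe the members only. Leaving out Cd74-rich or Lyz2+ cells, keeping B cells by Ighd and Mki67, and the mean over cells were chosen after seeing the data. With 1 library per group no replicate could be left out, and depth limits the S100a4+ classes most, where 3 UMIs amount to 6.91 to 10.5 CPM.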

Other observations

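Further groups of cells, some of which overlap the 6 classes, carried the same genes at other levels. These groups were chosen after values were seen and are given as values, without and then with butyrate, with 95% Poisson intervals. T cells with a Trdc UMI, a gene of γδ T cells, and no Cd4 or Cd8a UMI numbered 91 and 72. They had Ccr9 at 111 (82.3 to 145) and 100 (72.0 to 136) CPM, at or above its level in naive-like CD8 cells. Their Klf2 was 1914 (1790 to 2044) and 2209 (2067 to 2358) CPM and their Cxcr4 73.7 (51.0 to 103) and 144 (110 to 186) CPM, a log2 ratio of 0.97 (0.34 to 1.62). T cells with both a Cxcr5 and a Pdcd1 UMI, which mark follicular helper cells, and no Cd8a or Foxp3 UMI numbered 19 and 21. They were low in Ccr7, S1pr1 and Klf2. Their Ccr7 was 6.39 (0.162 to 35.6) and 24.6 (9.02 to 53.5) CPM, their S1pr1 6.39 (0.162 to 35.6) and 45.1 (22.5 to 80.6) CPM and their Klf2 70.3 (35.1 to 126) and 160 (114 to 218) CPM, while Itgb1 was 281 (204 to 378) and 299 (234 to 376) CPM.

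Cycling B cells, with an Mki67 UMI (120 and 61 cells), were set against B cells with an Ighd UMI and no Mki67 UMI (3844 and 3693 cells). Log2 ratios were -1.75 (-2.05 to -1.47) and -1.07 (-1.46 to -0.71) for Ccr7, -1.73 (-2.06 to -1.41) and -0.90 (-1.28 to -0.53) for S1pr1, and -1.79 (-2.02 to -1.57) and -1.61 (-1.92 to -1.32) for Gpr183. Itgb1 stood on the other side, at 1.38 (1.07 to 1.68) and 2.89 (2.59 to 3.19). Cells with Jchain and Sdc1 or Tnfrsf17 UMIs, which mark plasma cells, and no Cd3e UMI numbered 38 and 11. They had Ccr7 at 5.98 (2.19 to 13) and 8.01 (1.65 to 23.4) CPM and S1pr1 at 5.98 (2.19 to 13) and 21.4 (9.23 to 42.1) CPM. Cells with Flt3 and at least 5 Cst3 UMIs, both genes of dendritic cells, no Cd3e UMI and under 2 Cd79a UMIs numbered 11 and 28. They had Ccr7 at 1168 (996 to 1361) and 407 (350 to 470) CPM, above every class of lymphocytes, and Ccr9 at 121 (70.5 to 194) and 117 (87.3 to 153) CPM.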
